A study of Mus musculus with 4 samples.

Results

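The insulin-like growth factor genes Igf1 and Igf2, the Igf2 receptor gene Igf2r and the genes of the IGF-binding proteins, Igfbp1 to Igfbp7, held 76 of the 80881 peaks of an ATAC-seq comparison. ATAC-seq counts where a transposase can insert adapters into open chromatin. A peak was taken as a member when the gene the authors assigned to it was among these 10 genes, and no filter on low values was applied. The cells were KPC cells, a line of mouse lung adenocarcinoma from a KP tumour, and every library, controls included, came from cells that also carried Cas9 from the lentiviral vector SpCas9-T2A-Puro. CRISPR activation with the lenti-SAM-Hygro vector was directed at Malat1 (mA2 dRNA, 2 libraries) or at luciferase (Con dRNA, 2 libraries), and the series asks how raising Malat1 changes open chromatin. A single cell line was used, and the labels do not say whether the 2 biological replicates of a group came from separate transductions.

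IGF1 and IGF2 are secreted peptides that signal through the kinase receptor IGF1R, which promotes growth and survival in many carcinomas, lung adenocarcinoma among them. The receptor encoded by Igf2r binds IGF2 and carries it to lysosomes without such a signal. The binding proteins IGFBP1 to IGFBP6 hold IGFs in blood and tissue with high affinity, either keeping them from the receptor or delivering them to it. IGFBP7 is a related secreted protein with low affinity for IGFs that is found in matrix and around vessels.

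Levels are mean normalized reads of a peak in a group, taken from the authors' deposited table with mm10 coordinates, and 75 of the 76 peaks were windows of 401 bp, so that levels of different peaks can be set side by side. No column of a single library could be tied to a sample by its name, so those columns were left out. No spread between replicates therefore stands beside a mean, and only the adjusted p-value of the authors speaks to the error of a difference. A peak is called, or said to rise or fall, where that adjusted p was under 0.05. The file calls its groups dmA12 and dLuc, taken here as mA2 dRNA and Con dRNA because the series holds no other contrast. The family was selected on earlier results of this same contrast, the authors' p-value and group means of Igfbp7 peaks, so its counts of called peaks describe it and support nothing further. In bulk cells, a larger share of cells with an open site and a more open site in each cell cannot be told apart.

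Igfbp7 and Igfbp4 were the 2 genes of the family with a called peak over the start site, and Igf2r had a peak there that was not called. The 250 bases before the start site of each are printed because the data bear on them, with the bases that lie inside the deposited peak in capitals. The sequences are from RefSeq, build GRCm38.p6, which is mm10, and all 10 genes had at least 1 promoter entry. Igfbp7 is read from the minus strand at chr5:77408046-77408295, Igfbp4 from the plus strand at chr11:99040994-99041243, and Igf2r from the minus strand at chr17:12769707-12769956.
Igfbp7: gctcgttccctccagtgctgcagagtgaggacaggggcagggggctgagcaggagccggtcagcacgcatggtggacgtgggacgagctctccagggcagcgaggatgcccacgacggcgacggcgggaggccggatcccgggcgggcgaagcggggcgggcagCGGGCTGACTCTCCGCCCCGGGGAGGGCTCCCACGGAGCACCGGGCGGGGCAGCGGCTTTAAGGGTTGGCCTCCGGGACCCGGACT
Igfbp4: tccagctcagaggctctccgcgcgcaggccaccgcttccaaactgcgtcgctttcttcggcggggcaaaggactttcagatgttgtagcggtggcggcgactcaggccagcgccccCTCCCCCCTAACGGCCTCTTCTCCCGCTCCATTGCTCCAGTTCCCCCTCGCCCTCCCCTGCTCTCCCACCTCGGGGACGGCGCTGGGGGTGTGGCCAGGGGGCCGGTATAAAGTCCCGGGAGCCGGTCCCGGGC
Igf2r: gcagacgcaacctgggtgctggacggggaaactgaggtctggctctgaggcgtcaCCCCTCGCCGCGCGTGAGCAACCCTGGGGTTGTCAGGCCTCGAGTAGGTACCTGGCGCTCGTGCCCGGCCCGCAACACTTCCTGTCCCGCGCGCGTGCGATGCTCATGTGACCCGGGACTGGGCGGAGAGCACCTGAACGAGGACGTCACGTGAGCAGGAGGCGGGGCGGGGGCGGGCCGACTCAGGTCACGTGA

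These 3 promoters were rich in CpG, with 26 CpG dinucleotides for Igfbp7, 22 for Igfbp4 and 27 for Igf2r, against a median of 6 over 32851 RefSeq windows of the same length. The peak covered the 86 bases nearest the start site of Igfbp7, 134 of Igfbp4 and 195 of Igf2r. A search of both strands for 4 motifs, chosen after the data were seen, found the GC box GGGCGG at 4 places in the Igfbp7 window, of which those starting 74 and 44 bases before the start site lie inside the peak. The Igf2r window held 3 GC boxes and 2 copies of the E-box CACGTG. The Igfbp4 window held a TATA box, TATAAA, 28 bases before the start site and inside the peak. Of all windows, 32.7% held the GC box, 12.4% the TATA box and 6.02% the E-box. The AP-1 letters TGANTCA were in none of these 3 windows and in 6.75% of all windows, and such a match or its absence says nothing about binding.

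Of the 76 peaks, 10 rose and 2 fell with the Malat1 guide, and 7 of the 10 rises lay at Igfbp7. Igf1, Igfbp1 and Igfbp4 each had 1 rise, and both falls lay far upstream of Igfbp3. Igf2, Igf2r, Igfbp2, Igfbp5 and Igfbp6 had no called peak. Of all peaks 2.73% were called, 2.23% higher and 0.507% lower, beside 15.8%, 13.2% and 2.63% of the family's peaks. Without Igfbp7 the family had 3 rises and 2 falls among 67 peaks, 7.46%. On the log2 scale the 76 peaks had a median difference of 0.17, against 0.09 over all peaks, and 0.07 without Igfbp7.

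The split of higher and lower calls depended on the zero point of the differences. With all differences centred on the median of the table, 8 peaks of the family were called higher and 5 lower. Centring along abundance gave the same counts, and with centring by chromosome 9 were higher and 4 lower. The whole table of 80881 peaks moved the same way, from 1801 higher and 410 lower as deposited. It had 1314 higher and 600 lower on the median, 1280 and 572 along abundance, and 1182 and 486 by chromosome. Every call that changed stood near the threshold, with an adjusted p between 0.0301 and 0.0681 in the authors' deposited table. The called rises of the family ran from 1.76-fold to 4.25-fold with a median of 2.95-fold, beside 2.88-fold for all called rises.

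**Figure D1:**
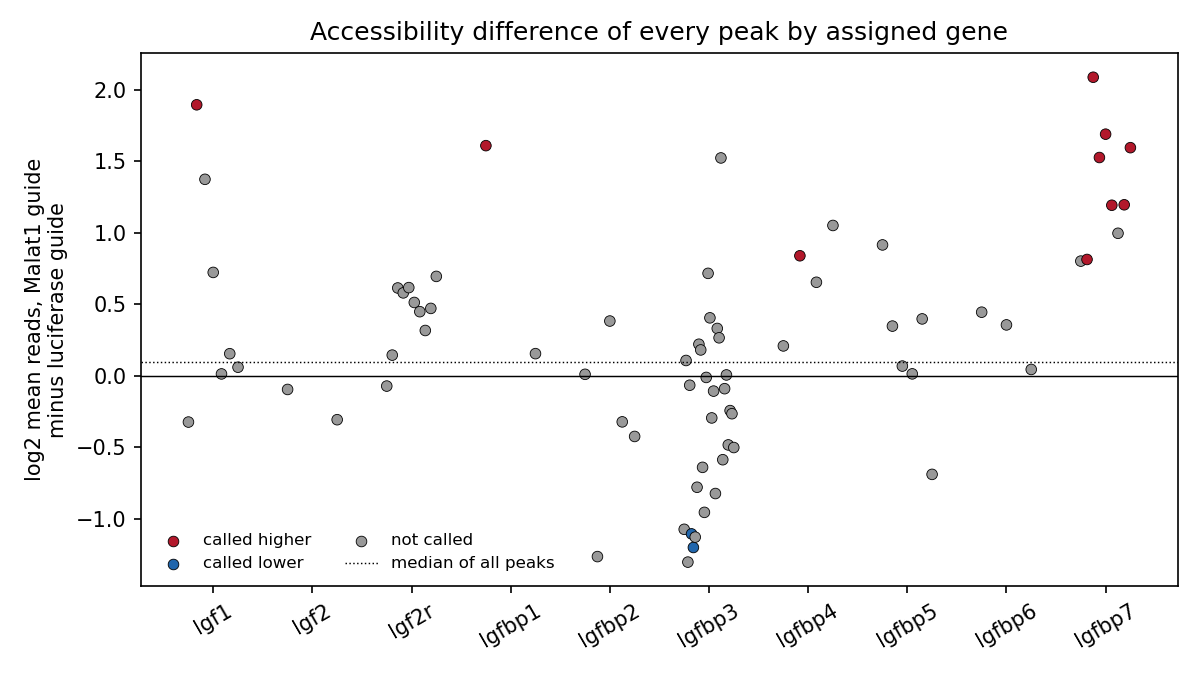
Difference of the log2 mean normalized reads (Malat1 guide minus luciferase guide, vertical axis) for each of the 76 peaks, by assigned gene, with points within a gene ordered by distance from the start site. Red points were called higher, blue points lower and grey points not called, and the dotted line is the median of all peaks at 0.09. All 9 Igfbp7 peaks lie at or above 0.80, while the 28 Igfbp3 peaks run from -1.30 to 1.52.

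Among the ligands, a single distal peak of Igf1 rose. Igf1, the circulating and tissue growth factor induced by growth hormone, lies on chromosome 10 from 87858265 to 87937047 and had 7 peaks. The peak 70.3 kb upstream in intergenic sequence, from 87787529 to 87787929, held 134 mean reads with the Malat1 guide against 36.2 in controls. The rise was 3.72-fold (adjusted p 0.0167 in the authors' deposited table).

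The 2 peaks between this rise and the gene had higher means without being called, and the peak farther upstream had a lower one. The peak 65.5 kb upstream held 38.9 against 15.0 reads and the peak 52.1 kb upstream 35.5 against 21.5 (adjusted p 0.195 and 0.721 in the authors' deposited table). The peak in the 5' untranslated region 1.86 kb past the start site was level, with 50.2 and 49.8 reads. The strongest Igf1 peak, in an intron 21.7 kb past the start site, held 341 and 306 reads (adjusted p 0.956 in the authors' deposited table). The remaining peaks, 130 kb upstream and 27.0 kb past the start site, held 29.6 against 37.1 and 117 against 112 reads. A further peak in the last intron carries the name Tyms-ps, and held 42.6 against 27.3 reads. The only called Igf1 peak thus lies upstream of the gene.

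Igf2, the fetal growth factor expressed from the paternal allele, had 2 weak peaks and no peak over any of its 4 RefSeq promoter windows. The peak 2.20 kb upstream held 19 reads with the Malat1 guide against 23.6 with luciferase, and the peak 5.69 kb upstream held 32.7 and 35.0. Neither was called (adjusted p 0.975 and 0.995 in the authors' deposited table). The partner H19, a noncoding RNA expressed from the maternal allele of the same imprinted cluster, had 2 peaks just upstream with higher means under the Malat1 guide. They held 75.8 against 37.8 reads at 2.24 kb and 30.8 against 16.5 at 3.50 kb (adjusted p 0.282 and 0.614 in the authors' deposited table).

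Igf2r had 10 peaks and 0 called. Of the 10, 9 had a higher mean in cells with the Malat1 guide, beside 60.8% of all peaks. In mouse tissues Igf2r is expressed from the maternal allele, and the antisense RNA Airn, which starts inside the gene, silences the paternal copy. The start-site peak of Igf2r, from 12769501 to 12769901 on chromosome 17, held 123 and 99.1 reads (adjusted p 0.885 in the authors' deposited table). The leading peak, 11.3 kb into the gene, held 233 and 144 reads (adjusted p 0.516 in the authors' deposited table). The strongest peak, 13.2 kb upstream, held 360 and 264 reads (adjusted p 0.703 in the authors' deposited table).

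The 10 log2 differences had a median of 0.49 and ran from -0.07 to 0.69, and none of the unadjusted p was below 0.05 in the authors' deposited table. Only 3 of the 10 lie inside Igf2r, which spans 12682406 to 12769706, and 7 lie past its start within the Airn transcript. Another 11 peaks inside Igf2r carry the name Airn, among them the peak over the Airn start site with 330 and 368 reads (adjusted p 0.936 in the authors' deposited table). The median difference was 0.51 over the 7 outer peaks and -0.04 over the 11 peaks named Airn, a contrast that was not tested.

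Igfbp7 had the most called peaks of the family. It spans 77349240 to 77408045 on chromosome 5, read from the minus strand. Of its 9 peaks 7, 77.8%, rose with the Malat1 guide, beside 2.23% of all peaks. All 9 had a higher mean in cells with the Malat1 guide, beside 60.8% of all peaks. The differences of the 9 ran from 0.80 to 2.09 on the log2 scale. Across the genome 9 genes, Igfbp7 included, had at least 7 higher calls, and 4 had more. The family was selected on Igfbp7 peaks of this contrast, so this rank only describes the gene. Summed over the 9 peaks, mean reads came to 2038 with the Malat1 guide and to 812 in controls, 2.51 times as many.

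The promoter peak of Igfbp7, from 77407731 to 77408131, held 422 reads with the Malat1 guide against 240.5 with luciferase. At 1.76-fold it was the smallest of the family's 10 rises (adjusted p 0.00407 in the authors' deposited table), and the highest of the 9 peaks with the luciferase guide. The sequence before its start site is printed above. The promoter was already open in control cells, and the fold differences of the called intron peaks were larger.

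The largest rise lay 20.5 kb into the gene, from 77387125 to 77387525, in sequence annotated as an intron of another transcript model. It held 308 against 72.5 reads, a 4.25-fold rise (adjusted p 8.98e-11 in the authors' deposited table). By p-value it ranked 8th among all 80881 peaks. The next peak, 23.5 kb into the gene in intron 1, from 77384183 to 77384583, was the most open of the locus with the Malat1 guide. It held 502 against 174 reads, a 2.88-fold rise, and ranked 10th (adjusted p 3.00e-10 in the authors' deposited table).

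Further into intron 1 the rises continued at lower levels. The peak at 32.7 kb held 203 against 63.1 reads, 3.22-fold (adjusted p 3.71e-04 in the authors' deposited table). The peak at 34.8 kb held 258 against 113 reads, 2.28-fold (adjusted p 0.00837 in the authors' deposited table). At 46.5 kb a weaker peak held 86.4 against 28.6 reads, 3.02-fold (adjusted p 0.0101 in the authors' deposited table). With the luciferase guide all 3 were less open than the promoter.

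The peak at 40.0 kb was the least certain of the 7, with 176 against 76.7 reads (adjusted p 0.0374 in the authors' deposited table). Centring on the median (recomputed adjusted p 0.0737) and centring along abundance (recomputed adjusted p 0.0537) each ended its call, and the other 6 Igfbp7 calls held under each centring. The peaks not called were the peak at 38.3 kb, with 61.4 against 30.8 reads, and an upstream peak 28.3 kb away, with 21.5 against 12.3 (adjusted p 0.364 and 0.822 in the authors' deposited table). From the first to the last called peak the rises spanned 47.0 kb.

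Calls among peaks of other names around Igfbp7 stood near the background share. Within 500 kb of the gene lay 42 peaks assigned to 13 other genes, of which 0 rose and 1 fell, beside 2.59% of the peaks of chromosome 5 called, and their median difference was 0.08. The fall, in a 3' untranslated region and named Aasdh, held 12.3 against 56.4 reads (adjusted p 0.0227 in the authors' deposited table). Of the 42, 3 lie inside Igfbp7 yet carry the name Polr2b, a subunit of RNA polymerase II. They held 218 against 123, 106 against 52.1 and 148 against 127 reads (adjusted p 0.133, 0.128 and 0.942 in the authors' deposited table). Over all peaks of chromosome 5 the median difference was -0.0056.

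**Figure D2:**
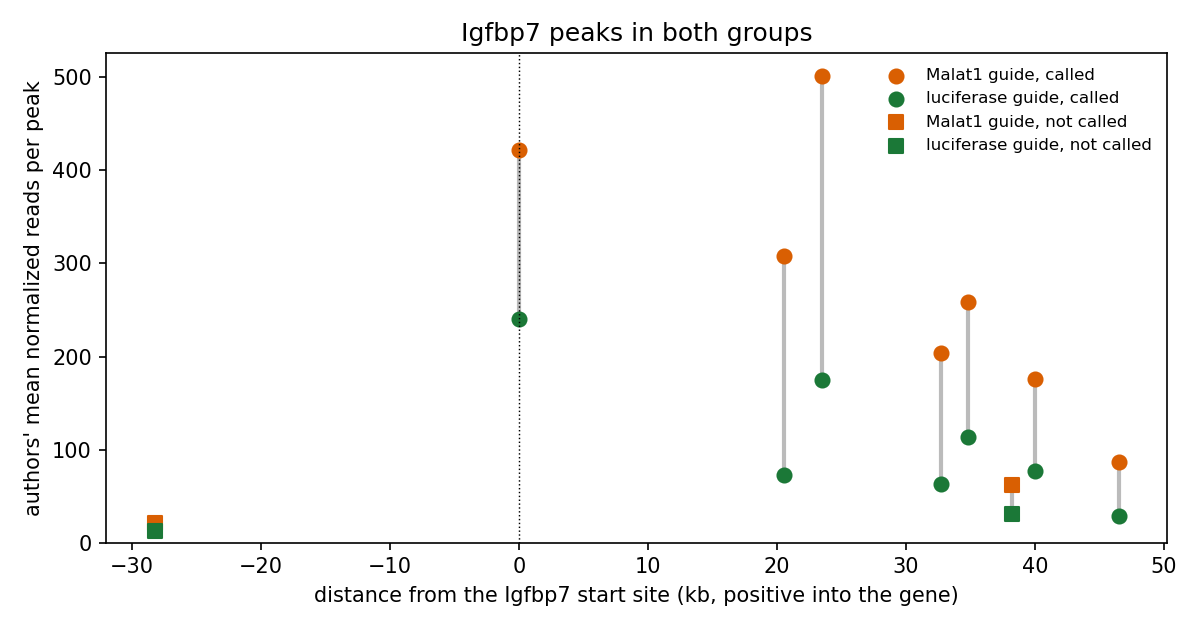
Authors' mean normalized reads (vertical axis) of the 9 Igfbp7 peaks against distance from the start site in kb (horizontal axis, positive into the gene), with the Malat1 guide in orange and the luciferase guide in green, circles for called peaks and squares for the others. Grey bars join the group means of a peak. The promoter peak at 0 is the highest with the luciferase guide at 240.5 reads, and the peak at 23.5 kb is the highest with the Malat1 guide at 502.

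Igfbp1 and Igfbp3 are neighbours on chromosome 11, with a rise near Igfbp1 and falls far upstream of Igfbp3. Igfbp1, a binding protein secreted by the liver and kept low by insulin, spans 7197787 to 7202546 and had 2 peaks. The peak 2.97 kb upstream, from 7194413 to 7194813, held 201 reads with the Malat1 guide against 65.9 with luciferase. The rise was 3.05-fold (adjusted p 1.88e-04 in the authors' deposited table). The intronic peak 2.26 kb past the start site held 26.8 and 24.1 reads (adjusted p 0.992 in the authors' deposited table). No peak covered the 250 bases before the Igfbp1 start site.

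On the far side of the Igfbp1 rise, 19 kb farther from the gene, a called fall carried the name Ccdc201. It lies from 7175005 to 7175405 in a 3' untranslated region and held 15.4 against 80.6 reads (adjusted p 0.00248 in the authors' deposited table). A rise and a fall stood on the same side of Igfbp1.

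Igfbp3, the main IGF carrier of blood, had 28 peaks, of which 2 fell and 0 rose. The gene spans 7206086 to 7215498 on the minus strand and its peaks reached 721 kb upstream, with 19 of the 28 beyond 100 kb. The 2 falls were adjacent, 0.984 kb apart, in intergenic sequence about 580 kb upstream. The first, from 7794265 to 7794665, held 172 reads with the Malat1 guide against 396 with luciferase, 2.30-fold lower (adjusted p 2.23e-04 in the authors' deposited table). The second, from 7795649 to 7796049, held 102 against 219 reads, 2.15-fold lower (adjusted p 0.00682 in the authors' deposited table).

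The nearest peak on the far side of these falls, 585 kb upstream, was level with 58.4 against 61.1 reads (adjusted p 0.996 in the authors' deposited table). Lower means stood farther off on both sides. The peak 567 kb upstream held 50.4 against 110 reads and the peak 644 kb upstream 37.3 against 92.2 (adjusted p 0.0624 and 0.0560 in the authors' deposited table). The peak at 686 kb held 33.5 against 31.1 reads. The peaks at 567 kb and 644 kb were called lower under each of the 3 centrings, with recomputed adjusted p from 0.0270 to 0.0428. Of the 19 peaks beyond 100 kb, 13 were lower on average with the Malat1 guide, beside 31704 of all 80881 peaks. The median difference of the 19 was -0.30. At such distances the gene name is an assignment by the authors and no sign of a link to Igfbp3.

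Close to the gene no Igfbp3 peak was called. The promoter peak, from 7213507 to 7213907, held 155 and 186.5 reads (adjusted p 0.915 in the authors' deposited table). The strongest peak of the family, 23.8 kb upstream, held 858 and 855 reads (adjusted p 0.999 in the authors' deposited table). Of the 9 peaks within 100 kb of the start site, 6 had a lower mean with the Malat1 guide, beside 31704 of all 80881 peaks. The differences of these 9 ran from -0.59 to 1.52. The 7 of them within 60 kb lay between -0.59 and 0.0045, against a median of 0.09 for the table. The peaks 71.0 kb and 81.9 kb upstream went the other way. They held 36.4 against 12.7 and 47.8 against 39.8 reads (adjusted p 0.143 and 0.962 in the authors' deposited table).

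**Figure D3:**
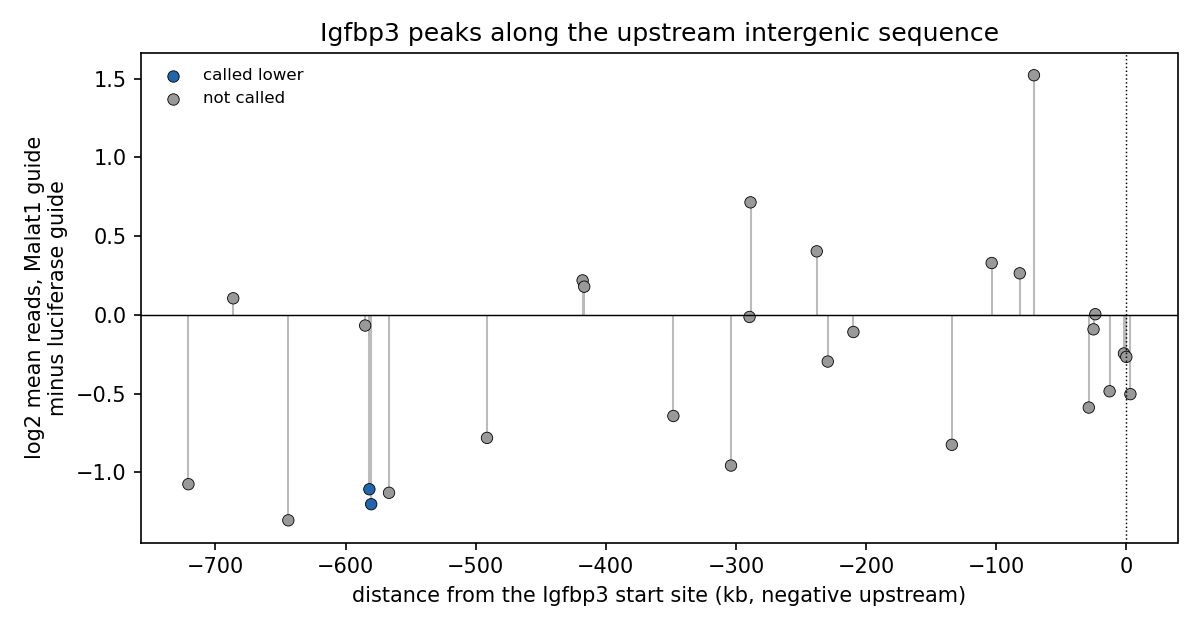
Difference of the log2 mean reads (Malat1 guide minus luciferase guide, vertical axis) of the 28 Igfbp3 peaks against distance from the start site in kb (horizontal axis, negative upstream). Blue points were called lower and grey points not called. The 2 called falls stand side by side near -580 kb. Peaks within 60 kb of the start site lie close to or below 0, and those 71.0 kb and 81.9 kb upstream lie above 0.

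Igfbp2 and Igfbp5 are neighbours on chromosome 1, and none of their 11 peaks was called. Igfbp2, a binding protein of fetal tissues and many tumours, spans 72824480 to 72852474. Its strongest peak, in intron 1 at 14.9 kb, held 478 reads with the Malat1 guide against 642 with luciferase (unadjusted p 0.00892 and adjusted p 0.162 in the authors' deposited table). Its leading peak, 40.1 kb upstream, held 34.3 against 82.4 reads (adjusted p 0.0681 in the authors' deposited table). Centring on the median made that peak a called fall (recomputed adjusted p 0.0455), as did centring along abundance (recomputed adjusted p 0.0459). The remaining peaks, 43.4 kb and 25.6 kb upstream, held 27.8 against 27.7 and 36.5 against 28.0 reads. The promoter peak was weak, with 18.1 and 22.6 reads (adjusted p 0.968 in the authors' deposited table).

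Igfbp5, a binding protein that attaches to matrix, spans 72858065 to 72874865. Its 6 peaks were all weak, with means over both groups from 34.0 to 62.7 reads. Of the 6, 5 had a higher mean in cells with the Malat1 guide, beside 60.8% of all peaks. The leading one, 2.93 kb upstream, held 44.4 against 23.6 reads (adjusted p 0.510 in the authors' deposited table). The promoter peak held 43.2 and 34.0 reads (adjusted p 0.956 in the authors' deposited table). The strongest, 3.47 kb into intron 1, held 64.1 and 61.2 reads (adjusted p 0.995 in the authors' deposited table). The other 3 held 36.8 against 59.4, 40.3 against 30.6 and 51.7 against 51.3 reads.

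Called rises stood nearby under other names. Within 500 kb of Igfbp5 lay 10 called rises and 0 falls among 48 peaks of 9 other gene names, beside 2.23% of all peaks called higher. Of the 10, 5 were assigned to Tnp1, a sperm nuclear protein, and the steepest of these, from 73061645 to 73062045, held 41.8 against 4.21 reads (adjusted p 7.17e-04 in the authors' deposited table). Another 3 were assigned to the unnamed gene D530049I02Rik. Of the 10, 9 lie beyond the Igfbp5 start site and 1, named Xrcc5, on the far side of Igfbp2. Igfbp2 and Igfbp5 themselves had no called peak.

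Igfbp4 had 4 peaks, and the peak over its start site rose. All 4 had a higher mean in cells with the Malat1 guide, beside 60.8% of all peaks. Igfbp4, a binding protein mainly known for holding IGFs from the receptor, spans 99040005 to 99052655 on chromosome 11. The start-site peak, from 99041110 to 99041510, held 340 reads with the Malat1 guide against 190.2 with luciferase, 1.79-fold more (adjusted p 0.0301 in the authors' deposited table). The call ended with each centring, at recomputed adjusted p from 0.0769 to 0.0907.

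The other Igfbp4 peaks were not called. The peak 1.09 kb upstream of the start site used by the authors held 219.8 and 190.4 reads (adjusted p 0.918 in the authors' deposited table). It overlaps the outer end of the RefSeq bounds of Igfbp4. Inside the gene the peak at 5.83 kb held 199 against 127 reads and the peak at 6.54 kb 70.1 against 33.9 (adjusted p 0.327 and 0.447 in the authors' deposited table). The 4 differences had a median of 0.75 on the log2 scale.

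Igfbp6, a binding protein that prefers IGF2, had 3 peaks on chromosome 15 and 0 called. The promoter peak, from 102143213 to 102143613, held 365 reads with the Malat1 guide against 268.5 with luciferase (unadjusted p 0.0257 and adjusted p 0.301 in the authors' deposited table). The intron 1 peak at 1.04 kb held 432 and 338 reads and the peak at 2.49 kb 125 and 121 (adjusted p 0.525 and 0.996 in the authors' deposited table). The median difference was 0.21 over chromosome 15 and 0.35 over the 3 Igfbp6 peaks.

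The called members differed in where they stood and how open they were in control cells. Of 28 intron peaks 6 rose, beside 3.03% of all intron peaks called in either direction. All 6 were peaks of Igfbp7, the gene on which the family was selected, and no intron peak of another member was called. Of 38 intergenic peaks 2 rose and 2 fell, beside 3.19% called, and of 7 promoter peaks 2 rose, beside 1.42% called. Peaks within 3 kb of a start site gave 3 of the calls among 16 peaks, at Igfbp1, Igfbp4 and Igfbp7, beside 1.57% of all peaks so near a start site. With the luciferase guide, 2 of the 12 called peaks held under 50 reads, at Igf1 and Igfbp7. The other 10 held between 63.1 and 396 reads there.

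**Figure D4:**
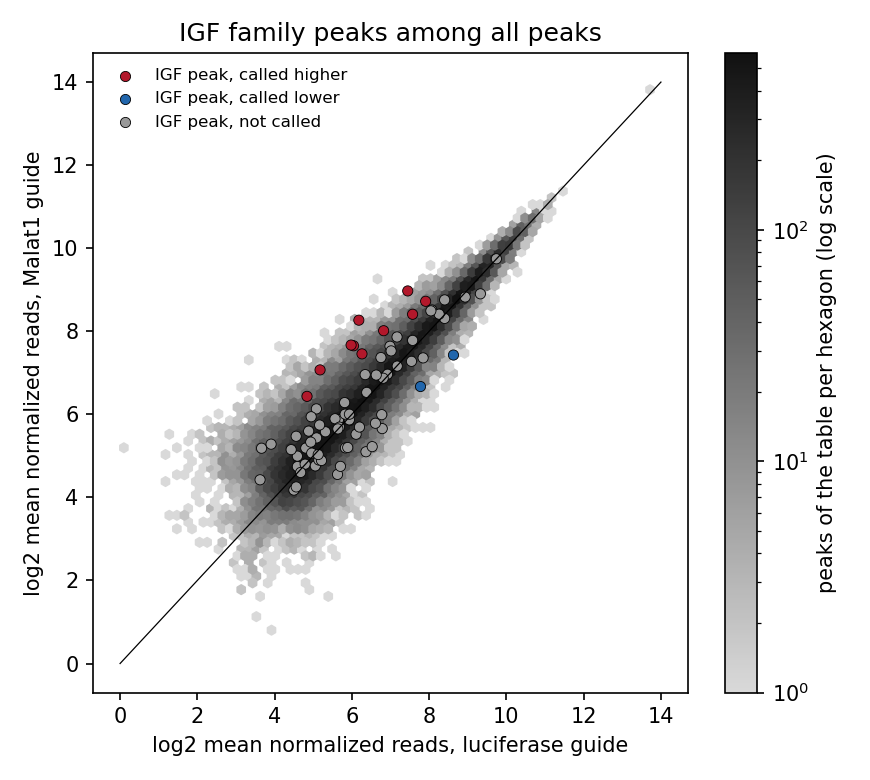
Log2 mean normalized reads with the luciferase guide (horizontal axis) and with the Malat1 guide (vertical axis) for all 80881 peaks, as hexagons shaded by the number of peaks on a log scale, with the 76 IGF family peaks as points. Red points were called higher, blue points lower and grey points not called, and the line marks equal means. The called peaks of the family lie between 28.6 and 396 reads with the luciferase guide. Their mean levels over both groups run from percentile 42.1 to 86.5 of all peaks.

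Around the family, a list of 40 further genes of the IGF pathway had few called peaks. Of the 40, 39 genes had peaks, 293 in all, of which 3 rose and 0 fell, 1.02% beside the 2.73% of all peaks called. The list had a median log2 difference of 0.16, against 0.09 over all peaks. Igf1r, the signalling receptor, had 20 peaks and 0 called, and its leading peak held 25.7 against 6.15 reads (adjusted p 0.102 in the authors' deposited table). Of the 20, 19 had a higher mean with the Malat1 guide, beside 60.8% of all peaks, and their median difference was 0.34. The insulin receptor gene Insr had 6 peaks and 0 called, with differences from -0.10 to 0.35.

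Of the 3 rises of the list, 2 are described here, at a receptor and at a subunit of PI3K. A peak 124 kb upstream of Ghr, the growth hormone receptor, held 108 against 32.1 reads, 3.37-fold higher (adjusted p 0.00316 in the authors' deposited table). An exonic peak 3.69 kb from the start site of Pik3r3, a regulatory PI3K subunit, held 74.1 against 20.5 reads (adjusted p 0.0159 in the authors' deposited table).

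The other groups of the list had 0 called peaks. Adaptors had 58 peaks, carriers, proteases and inhibitors outside the cell 64, the mRNA-binding proteins Igf2bp1 to Igf2bp3 16, and H19 with Airn 13. An unadjusted p below 0.05 in the authors' deposited table was given to 6, 8, 1 and 1 of them. The promoter peak of Htra1, a secreted protease that cleaves binding proteins, held 135 against 66.7 reads (adjusted p 0.123 in the authors' deposited table). Pappa, the protease that cleaves IGFBP4, had 10 peaks with a median difference of 0.67 and 0 called.

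Over the table the sum of mean normalized reads was 1.07 times as high with the Malat1 guide, and 5% of peaks held under 20.4 reads over both groups. As a description of the labelled cells, peaks lay within 3 kb of the start site for 4 of 5 epithelial markers and 4 of 4 lung epithelial markers. The same held for 1 of 3 leukocyte, 1 of 3 endothelial and 1 of 3 fibroblast markers. Epcam, Ptprc and Pecam1 had none, and 0 of these marker peaks were called. Levels did not separate the groups. With the Malat1 and the luciferase guide the strongest such peak held 32.2 and 35.3 reads at Sftpc and 37.5 and 29.6 at Sftpb. It held 65.8 and 87.2 at Nkx2-1 and 348 and 254 at Foxa2. Epithelial Krt8 held 559 and 584, fibroblast Col1a1 555 and 516, and leukocyte Cd68 319 and 276. These counts therefore do not settle the cell type. Malat1 RNA and the RNA of the IGF genes were not measured by this assay.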

How the data were processed

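Chromatin accessibility was measured by ATAC-seq with the Active Motif kit, per the labels' protocols, in 2 libraries with a Malat1 guide and 2 with a luciferase guide. The build was mm10, and the tools were Bowtie2, MACS2, Picard, FastQC, ChIPseeker, DiffBind and deepTools, with no version or role, per the submitters' processing notes. Not given in the sources used here: normalization, duplicate handling, the shift of read ends and the peak calling scheme. Such choices can move every level, and the zero point of all differences rests on the normalization. The authors deposited, per the file headers, the log2 mean normalized reads per peak and group, their log2 fold, a p-value with its adjusted p-value, and the distance from the assigned gene's start site. Distances of peaks from a start site are those of the authors, whose start site can differ from the end of the RefSeq bounds given for a gene. The adjusted p-values equal a Benjamini-Hochberg adjustment of the p-values over all peaks within 7.40e-06. The authors' log2 fold is pulled towards 0 against the difference between group means, so folds here are ratios of the group means. The median ratio was 0.77 over called peaks and 0.10 over peaks not called. At peaks not called, the differences given here are thus typically much larger than the authors' own estimates.

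The table held 4 per-library columns whose names match no sample label. They were not used, so depth per library is unknown here and the planned fits per library were not run. Where differences were centred, each p was recomputed from the difference of group means and the standard error implied by the deposited p. For scores under 1 that error was the running median over 501 peaks. The step was run in Python 3.11.15 with scipy 1.17.1. A trial on simulated data drew its noise from the same implied errors. It therefore cannot show whether the recomputed p match those the authors' test would give. The named peaks are, for each gene, every called peak, the peak with the smallest p, the nearest to the start site and the strongest, and for the wider list the called peaks, of which 1 is not reported here. Other peaks were named after their values were seen. The members and lists were chosen with earlier results of these data known.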

Additional observations from a re-analysis of the deposited data

How the results depend on the processing

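Of 12 called peaks of the IGF genes, the count stayed within 1.5 times under the 3 centrings (13 each), with peaks of at least 30 mean reads (12), an adjusted p under 0.01 (8), at least 2-fold (10), peaks within 100 kb or 200 kb (10 each) and peaks inside the RefSeq bounds of the genes (8). It was 3 among the 16 peaks within 3 kb, 18.75%, beside 1.57% of all peaks so near a start site. Without Igfbp7 it was 5 among 67 peaks, 7.46%, beside 15.8% of all 76 and 2.73% of all peaks. Apart from the centrings, the other settings have no count over all peaks beside them, so those counts only describe the family. The settings without Igfbp7, within 200 kb and inside the RefSeq bounds were chosen after seeing the data. For the wider list the count of 3 went to 1 with an adjusted p under 0.01, to 1 with peaks within 100 kb and to 0 with peaks within 3 kb. Small differences of peaks that were not called changed sign with centring on the median, along abundance and by chromosome: the Igf1 peak at 1.86 kb to -0.080, -0.13 and -0.025, and the Igfbp3 peak 23.8 kb upstream to -0.087, -0.071 and -0.095. The Igfbp5 peak at 3.47 kb went to -0.025 on the median and -0.031 along abundance, and the Igfbp1 peak at 2.26 kb to -0.0078 along abundance. No paired analysis was possible because no column of a single library could be tied to a sample. For the same reason the limma fit and leaving out each library were not run. Depth per library is unknown here, and the smallest difference that could be called at a given level was not computed.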
